A study of Mus musculus with 20 samples.

Results

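Macrophages of the mouse dura mater with high surface MHC class II were compared with dura macrophages in which MHC class II was low. The 8 libraries concerned were chosen by their titles, 4 MHC II-high and 4 MHC II-low, out of 20 bulk RNA-seq libraries of brain, border and peritoneal macrophages. Both groups came from the dura of C57BL/6JRj mice, an inbred wild-type strain, and total RNA was sequenced. The MHC II-low libraries are titled "int" and carry "lo" in their cell type label. No treatment, transgene or genotype beyond the strain is given for either group, and the sources used here give no age, sex, sorting gate or pooling of animals. Nothing states that replicates 1 to 4 of a group are separate animals, so p-values measure the spread between these libraries, which may be technical.

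The dura is the outer sheath around the brain and lies outside the blood-brain barrier. Its resident macrophages, a class of border-associated macrophage, sample blood-derived and brain-derived antigen, clear debris and meet T cells patrolling the sheath. MHC class II molecules present peptides from engulfed protein to CD4+ T cells, and their genes are switched on together by the coactivator CIITA. In several mouse tissues macrophages split into a perivascular type with the hyaluronan receptor LYVE1 and little MHC class II, and a type with much MHC class II and the chemokine receptor CCR2, which is replenished more by blood monocytes.

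Gene counts came to 22203235 to 32611875 per MHC II-high library and 26312505 to 30398564 per MHC II-low library, and 13910 to 14509 genes had a count in MHC II-high and 14157 to 14452 in MHC II-low libraries. Levels are in CPM, gene counts scaled to the TMM-adjusted total of a library and not to gene length, so they are compared between libraries and not between genes. Means are given ± SD (n = 4 libraries per group) and log2 fold changes, MHC II-high over MHC II-low, ± SE. The macrophage identity of both groups held at the RNA level. Csf1r, the receptor that macrophages need to survive, averaged 6474 in MHC II-high against 8331 CPM in MHC II-low, and the 14 macrophage core genes summed to 35800 to 39700 CPM in MHC II-high and 34300 to 39000 CPM in MHC II-low libraries. None of these 14 genes was at 0 in the 8 libraries.

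The sorted molecule set the libraries apart, and its genes are given as levels only. H2-Aa, the alpha chain of I-A (chromosome 17, 34282744 to 34287823, minus strand, mm10), had 7112, 6955, 7466 and 6910 CPM in MHC II-high libraries, against 177, 180.2, 187 and 203 CPM in MHC II-low libraries. Its partner H2-Ab1 averaged 11270 ± 493 in MHC II-high against 311 ± 19.9 CPM in MHC II-low, and H2-Eb1 averaged 6238 ± 274 in MHC II-high against 123 ± 23.7 CPM in MHC II-low. The invariant chain gene Cd74, whose product guides class II molecules to the endosome, averaged 30790 ± 1347 in MHC II-high against 1588 ± 48.3 CPM in MHC II-low. Ciita, the coactivator of the whole set, stood at 167 ± 18.99 in MHC II-high against 10.2 ± 4.04 CPM in MHC II-low. All MHC II-high libraries lay far above all MHC II-low libraries for these genes, and none of these 5 genes was at 0 in an MHC II-low library. The summed level of the 11 listed class II genes was 58900, 54200, 58300 and 55400 CPM in MHC II-high libraries and 2390, 2320, 2410 and 2540 CPM in MHC II-low libraries.

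Promoters of the sorted molecule's genes are shown for a short motif that most of them hold. NF-Y, a factor that acts with the CIITA complex, binds the letters CCAAT or, on the other strand, ATTGG. The last 110 bases before the annotated start of 4 class II genes, chosen after the motif positions were seen, are printed 5′ to 3′ on the gene's strand, from RefSeq's table on GRCm38.p6, with CCAAT or ATTGG in capitals.
H2-Aa (chr17:34287824-34287933, minus strand): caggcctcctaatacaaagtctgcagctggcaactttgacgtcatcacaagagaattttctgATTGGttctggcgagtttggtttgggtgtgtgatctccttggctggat
H2-Eb1 (chr17:34305757-34305866, plus strand): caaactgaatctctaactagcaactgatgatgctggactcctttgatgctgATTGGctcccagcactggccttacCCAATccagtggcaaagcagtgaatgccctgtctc
H2-DMb1 (chr17:34153081-34153190, plus strand): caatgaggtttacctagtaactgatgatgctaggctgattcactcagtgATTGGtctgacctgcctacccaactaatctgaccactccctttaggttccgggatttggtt
H2-Oa (chr17:34092269-34092378, plus strand): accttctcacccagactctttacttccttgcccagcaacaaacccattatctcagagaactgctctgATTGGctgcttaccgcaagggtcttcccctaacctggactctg
In these 4 promoters ATTGG began 48, 59, 61 and 43 bases before the start in H2-Aa, H2-Eb1, H2-DMb1 and H2-Oa. Of the others in that table, not printed, H2-Ob held it at 57, H2-DMb2 at 90 and H2-Eb2 at 100 bases, and the 110 bases of H2-DMa held neither form, so 7 of 8 genes had it in that length. H2-Eb2 was near 0 in both groups and was not tested. Over the 250 bases before the start, 8 of the 8 class II genes found in that table held CCAAT on either strand. So did 40.6% of the 9657 tested genes with a promoter there, 4 of the 11 matched genes among the 12 largest rises described below and 0 of the 8 matched genes among the 12 largest falls. A match in these letters is not a binding site.

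Apart from the sorted molecule, the populations differed across 21.4% of the transcriptome that could be tested. Of 12631 genes that passed a filter on low counts, 1403 (11.1%) were higher and 1297 (10.3%) lower in MHC II-high libraries at a Benjamini-Hochberg adjusted p under 0.05 in edgeR's quasi-likelihood test with replicate number as a block. Such a gene is said below to have risen or fallen. Most changes were modest: 2107 of the 2700 were under 2-fold, and at 2-fold or more 363 (2.87%) rose and 230 (1.82%) fell, 4.69% together. The median over all tested genes was 0.00, which is the level against which a gene class is read. Well expressed genes were called more often. Of 1373 genes averaging 50 CPM or more, with 689 to 4100 exon bases and no ribosomal protein genes, 279 rose and 308 fell. That is a larger share than over all genes, which are thus a low yardstick for classes of well expressed genes. Without the block, 1009 genes (7.99%) rose and 909 (7.2%) fell, 15.2% in all, and the count without the block is given for a class where it moves by over 1.5 times in either direction. Within a class, largest refers to called members whose higher mean is at least 10 CPM. Libraries did not overlap between the groups for 2512 genes, 19.9% of those tested (10.3% with MHC II-high above and 9.56% with it below).

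Ccr2, a marker of the MHC II-high population, was among the 12 largest rises. CCR2 binds CCL2 and related chemokines and takes monocytes out of marrow and into tissue (chromosome 9, 124101950 to 124113557, plus strand). Its gene had 1046, 1077, 1136 and 1258 CPM in MHC II-high libraries, against 113, 113, 78.2 and 123 CPM in MHC II-low libraries. The lowest MHC II-high library lay many times above the highest MHC II-low one, and the log2 fold change was 3.42 ± 0.10 (edgeR adjusted p = 7.4e-10).

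**Figure D1:**
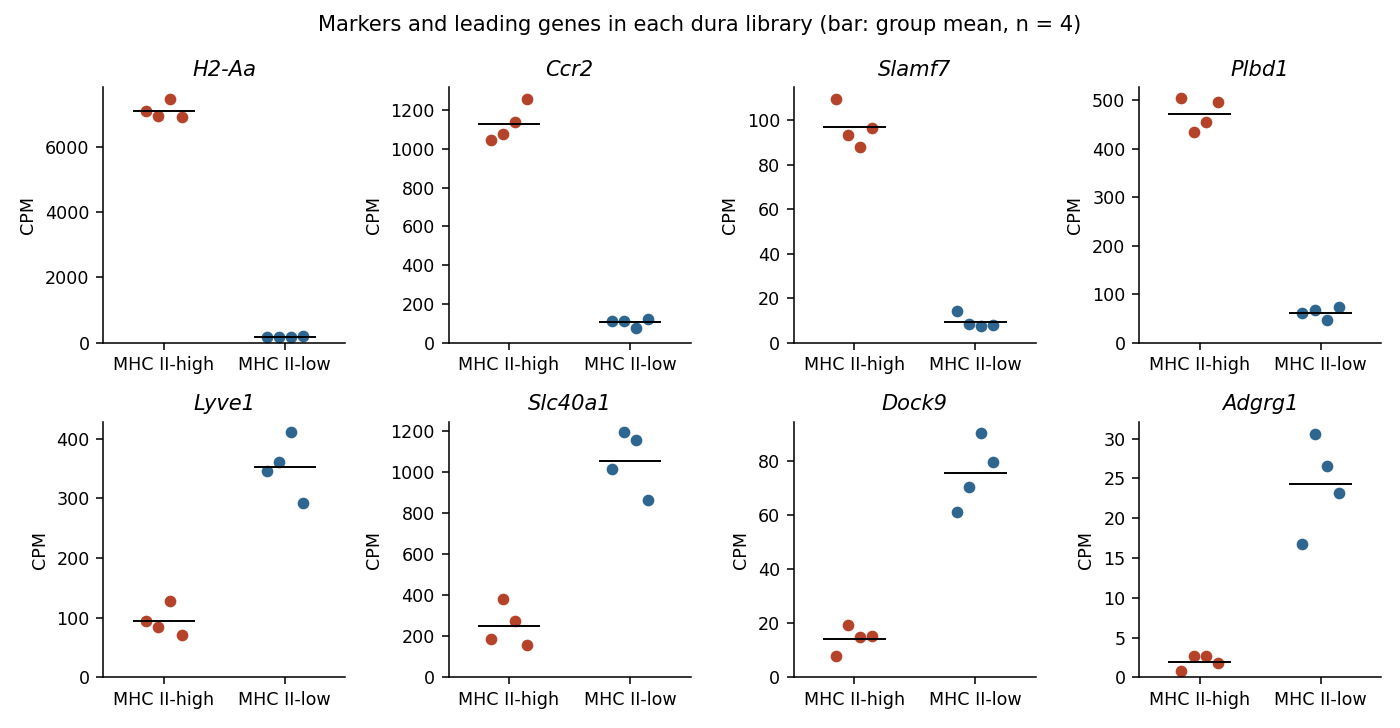
Level in CPM of 8 genes in each of the 4 MHC II-high libraries (left in each panel) and 4 MHC II-low libraries (right), with the group mean as a bar and each axis starting at 0. H2-Aa, Ccr2, Slamf7 and Plbd1 are higher in every MHC II-high library, and Lyve1, Slc40a1, Dock9 and Adgrg1 are lower in every one.

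Slamf7, a self-binding receptor of the SLAM family that adjusts immune cell activation, had 109.7, 93.5, 88.2 and 96.6 CPM in MHC II-high libraries, against 14.1, 8.51, 7.48 and 7.78 CPM in MHC II-low libraries (log2 fold change 3.39 ± 0.13). Plbd1, a phospholipase B-like protein of myeloid cells, had 503, 435, 455 and 495 CPM in MHC II-high libraries, against 60.96, 66.4, 45.8 and 73.99 CPM in MHC II-low libraries (log2 fold change 2.95 ± 0.10). Retnla, the secreted protein RELM-alpha that interleukin 4 induces, had 85.3, 64.1, 72.5 and 60.5 CPM in MHC II-high libraries, against 5.299, 3.47, 6.53 and 8.38 CPM in MHC II-low libraries (log2 fold change 3.61 ± 0.20). For all 3 genes the MHC II-high libraries lay above the MHC II-low ones with no overlap.

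The other large rises were those of Gbp2b, an interferon-inducible GTPase (log2 fold change 3.88 ± 0.70), the secreted glycoprotein Olfm1 (3.0 ± 0.13), the Ras activator Rasgrp1 (2.95 ± 0.48), the tetraspanin Tspan32 (2.87 ± 0.17), the Ly49-type receptor Klra2 (2.84 ± 0.16), the C1q-like secreted protein C1qtnf1 (2.66 ± 0.13), the C-type lectin Clec4b1 (2.59 ± 0.11) and the CXCR3 ligand Cxcl9 (2.57 ± 0.17). Gbp2b averaged 23.5 ± 6.86 in MHC II-high against 1.81 ± 1.51 CPM in MHC II-low and lost its call without replicate 3 or replicate 4. Klra2, Clec4b1 and Gbp2b have close paralogs, between which the authors' counting could have divided reads.

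The markers of the MHC II-low population fell. Lyve1 (chromosome 7, 110850607 to 110863239, minus strand) had 94.4, 85.1, 128 and 71.3 CPM in MHC II-high libraries, against 346, 361, 411 and 293 CPM in MHC II-low libraries, and its log2 fold change was −1.92 ± 0.07 (edgeR adjusted p = 6.88e-09). Slc40a1, which encodes ferroportin, the iron exporter (chromosome 1, 45908068 to 45926523, minus strand), had 188, 382, 277 and 159.6 CPM in MHC II-high libraries, against 1014, 1194, 1155 and 863 CPM in MHC II-low libraries, with a log2 fold change of −2.14 ± 0.13 (edgeR adjusted p = 1.12e-05). Both genes were still well expressed in MHC II-high libraries, and neither overlapped between the groups.

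The largest falls included adhesion and signalling receptors. Adgrg1, the adhesion receptor GPR56, had 0.796, 2.66, 2.61 and 1.85 CPM in MHC II-high libraries, against 16.7, 30.6, 26.5 and 23.2 CPM in MHC II-low libraries (log2 fold change −3.69 ± 0.21). Dock9, an exchange factor for CDC42, had 7.93, 19.3, 14.8 and 15.2 CPM in MHC II-high libraries, against 61.3, 70.4, 90.4 and 79.8 CPM in MHC II-low libraries (log2 fold change −2.45 ± 0.15). The remaining falls were those of Fzd8, a Wnt receptor (−2.87 ± 0.18), the actin-anchoring gene Nrap (−2.68 ± 0.18), the EGF receptor ligand Tgfa (−2.60 ± 0.23), the crystallin gene Crybb1 (−2.59 ± 0.17), the secreted proteins Angptl7 (−2.47 ± 0.21), Egfl7 (−2.28 ± 0.13) and Cyr61 (−2.23 ± 0.09), the receptor phosphatase Ptprk (−2.28 ± 0.21) and the scavenger receptor Colec12 (−2.22 ± 0.08). Cyr61 averaged 83.9 ± 15.3 in MHC II-high against 394 ± 77.7 CPM in MHC II-low. Adgrg1 and Crybb1 are also known from microglia.

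The resident programme of LYVE1 macrophages was lower nearly throughout. Of 25 genes known from LYVE1+ tissue macrophages, 22 fell and 1 rose. Their median log2 fold change was −0.71. With Lyve1 the largest falls were of the endothelin receptor Ednrb (76.5 ± 20.9 in MHC II-high against 291 ± 53.6 CPM in MHC II-low) and ficolin A, Fcna (47.9 ± 12.4 in MHC II-high against 168 ± 39.4 CPM in MHC II-low). Ltc4s, which makes leukotriene C4, fell as well (50.7 ± 12.2 in MHC II-high against 119 ± 15.4 CPM in MHC II-low). The rise was that of the signalling adaptor Blnk (log2 fold change 0.32 ± 0.07), a call lost without replicate 4. The list was drawn up with these libraries' earlier results known, so its direction is no independent evidence. The list's summed level was 18100, 22700, 21000 and 17500 CPM in MHC II-high libraries and 29000, 32400, 32200 and 29100 CPM in MHC II-low libraries, without overlap.

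Genes used to recognise microglia moved with the resident genes. Of 23 tested, 17 fell and 3 rose (median −0.67). Besides Adgrg1 and Crybb1, the fructose transporter gene Slc2a5 fell to 0.7099 in MHC II-high against 10.4 CPM in MHC II-low, a call lost without replicate 3 or 4, and the protease Ctsl fell to 249.7 ± 29.5 in MHC II-high against 512 ± 59.7 CPM in MHC II-low. The exceptions included Tmem119 (223 ± 31.3 in MHC II-high against 115 ± 35.3 CPM in MHC II-low), called except without replicate 3 or 4, and the fractalkine receptor Cx3cr1 (log2 fold change 0.34 ± 0.05). Genes of the disease-associated microglia state were mixed, with 7 risen and 5 fallen of 21. The lectins Lgals3 (1.87 ± 0.12) and Clec7a (1.13 ± 0.07) and lipoprotein lipase, Lpl (0.82 ± 0.06), rose, while Apoe, the apolipoprotein E gene, at 27920 ± 1306 in MHC II-high against 34290 ± 4154 CPM in MHC II-low, fell slightly (−0.29 ± 0.06).

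Genes of monocytes moved in both directions. Of 23 tested monocyte markers 9 rose and 4 fell (8 rises and 2 falls without the block). With Ccr2 and Plbd1 the largest rises were of Lsp1, a leukocyte actin-binding protein (198 ± 31.6 in MHC II-high against 61.5 ± 14.9 CPM in MHC II-low), and the surface glycoprotein Cd52 (222 ± 16.5 in MHC II-high against 74.3 ± 20.2 CPM in MHC II-low). The detoxifying enzyme Mgst1 fell (45.9 ± 9.81 in MHC II-high against 73.2 ± 12.3 CPM in MHC II-low). Ly6c2, which marks classical blood monocytes, was not called and is named after its values were seen. It had 3.03, 0.315, 0.523 and 2.68 CPM in MHC II-high libraries, against 0.9396, 1.95, 0.266 and 3.69 CPM in MHC II-low libraries, low in both groups. The 26 markers summed to 16400 to 17600 CPM in MHC II-high libraries and 11400 to 12500 CPM in MHC II-low libraries, counts to which Lyz2 gave 12160 ± 133 in MHC II-high against 9078 ± 558 CPM in MHC II-low. In bulk RNA a different number of cells of a type cannot be told apart from a different amount of RNA per cell.

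Receptors that steer cells and the chemokines themselves divided between the populations. Of 25 chemoattractant receptors tested, 7 rose and 6 fell. Besides Ccr2, the CXCL12 receptor Cxcr4 (24.3 ± 6.699 in MHC II-high against 12.3 ± 2.74 CPM in MHC II-low) and the chemerin-binding receptor Ccrl2 (382 ± 90.4 in MHC II-high against 216 ± 32.4 CPM in MHC II-low) rose. The formyl peptide receptor Fpr1 (14.8 ± 3.61 in MHC II-high against 55.9 ± 8.57 CPM in MHC II-low), Cxcr3 (22.6 ± 2.97 in MHC II-high against 47.9 ± 6.55 CPM in MHC II-low) and the sphingosine 1-phosphate receptor S1pr1 (96.3 ± 13.6 in MHC II-high against 193 ± 22.95 CPM in MHC II-low) fell.

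Of 24 chemokine ligand genes 12 rose and 4 fell (median 0.50) (11 rises and 2 falls without the block). Cxcl9 had 66.5, 96.6, 83.7 and 47.3 CPM in MHC II-high libraries, against 10.1, 13.6, 11.2 and 13.6 CPM in MHC II-low libraries. Cxcl16, the membrane-bound CXCR6 ligand, averaged 442 ± 24.4 in MHC II-high against 194 ± 14.7 CPM in MHC II-low. Cxcl12 averaged 24.4 ± 10.1 in MHC II-high against 7.55 ± 1.15 CPM in MHC II-low, and Ccl6 averaged 633 ± 80.8 in MHC II-high against 362 ± 39.9 CPM in MHC II-low. Cxcl9 rose in the population where Cxcr3, its receptor, fell. The eotaxin Ccl24 (82.5 ± 10.8 in MHC II-high against 178 ± 43.1 CPM in MHC II-low) and the monocyte attractant Ccl7 (956 ± 123 in MHC II-high against 1292 ± 64.9 CPM in MHC II-low) fell. Ccl2, the main CCR2 ligand, averaged 699.5 ± 167 in MHC II-high against 882 ± 125 CPM in MHC II-low, a call lost without the block (edgeR adjusted p = 0.234).

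Molecules that shape T cell responses rose more than they fell. Among 24 tested costimulatory and checkpoint genes 12 rose and 3 fell. The SLAM receptors Slamf7, Slamf8 (70.4 ± 10.1 in MHC II-high against 12.2 ± 2.86 CPM in MHC II-low) and Slamf9 (194 ± 34.5 in MHC II-high against 57.9 ± 8.3 CPM in MHC II-low) and the checkpoint receptor TIM-3, Havcr2 (64.5 ± 6.35 in MHC II-high against 24.97 ± 3.69 CPM in MHC II-low), had the largest rises. Cd86, the classical costimulatory ligand of CD28, went the other way, at 327 ± 10.6 in MHC II-high against 418 ± 12.97 CPM in MHC II-low (log2 fold change −0.36 ± 0.05). MHC class I genes were higher by small steps: 13 of 23 rose and 0 fell (median log2 fold change 0.20). Of these only 1, the proteasome activator Psme2 (148 ± 19.5 in MHC II-high against 111 ± 14.4 CPM in MHC II-low), passed without the block. The class I light chain B2m averaged 4549 ± 411 in MHC II-high against 3497 ± 811 CPM in MHC II-low with overlapping libraries.

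Dendritic cell markers leaned up but did not move as 1 group. Of 20 tested, 7 rose and 4 fell. The median log2 fold change was 1.16, with 16 genes above 0 and 4 below. The integrin CD11c, Itgax (36.5 ± 12.5 in MHC II-high against 6.16 ± 1.62 CPM in MHC II-low), the transcription factor Batf3 (16.8 ± 1.61 in MHC II-high against 4.32 ± 0.924 CPM in MHC II-low) and the lectin Mgl2 (794 ± 179 in MHC II-high against 441 ± 96.2 CPM in MHC II-low) rose. Zbtb46, which sets classical dendritic cells apart from macrophages, fell (10.1 ± 1.24 in MHC II-high against 24.8 ± 3.72 CPM in MHC II-low). So did the actin bundler Fscn1 (29.1 ± 5.06 in MHC II-high against 88.2 ± 5.32 CPM in MHC II-low) and the lectin Clec10a (286 ± 28.4 in MHC II-high against 474 ± 44.6 CPM in MHC II-low). Clec9a, a defining marker of cross-presenting dendritic cells, was called at a low level of 3.03 in MHC II-high against 0.0487 CPM in MHC II-low, and Flt3, the receptor that dendritic cells depend on, at 4.25 in MHC II-high against 0.856 CPM in MHC II-low; both are named after their values were seen. The 22 markers summed to 1690 to 2020 CPM in MHC II-high libraries and 1490 to 1770 CPM in MHC II-low libraries, and none was at 0 in all 8 libraries. The part of dendritic cells in any of these differences was not tested.

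**Figure D2:**
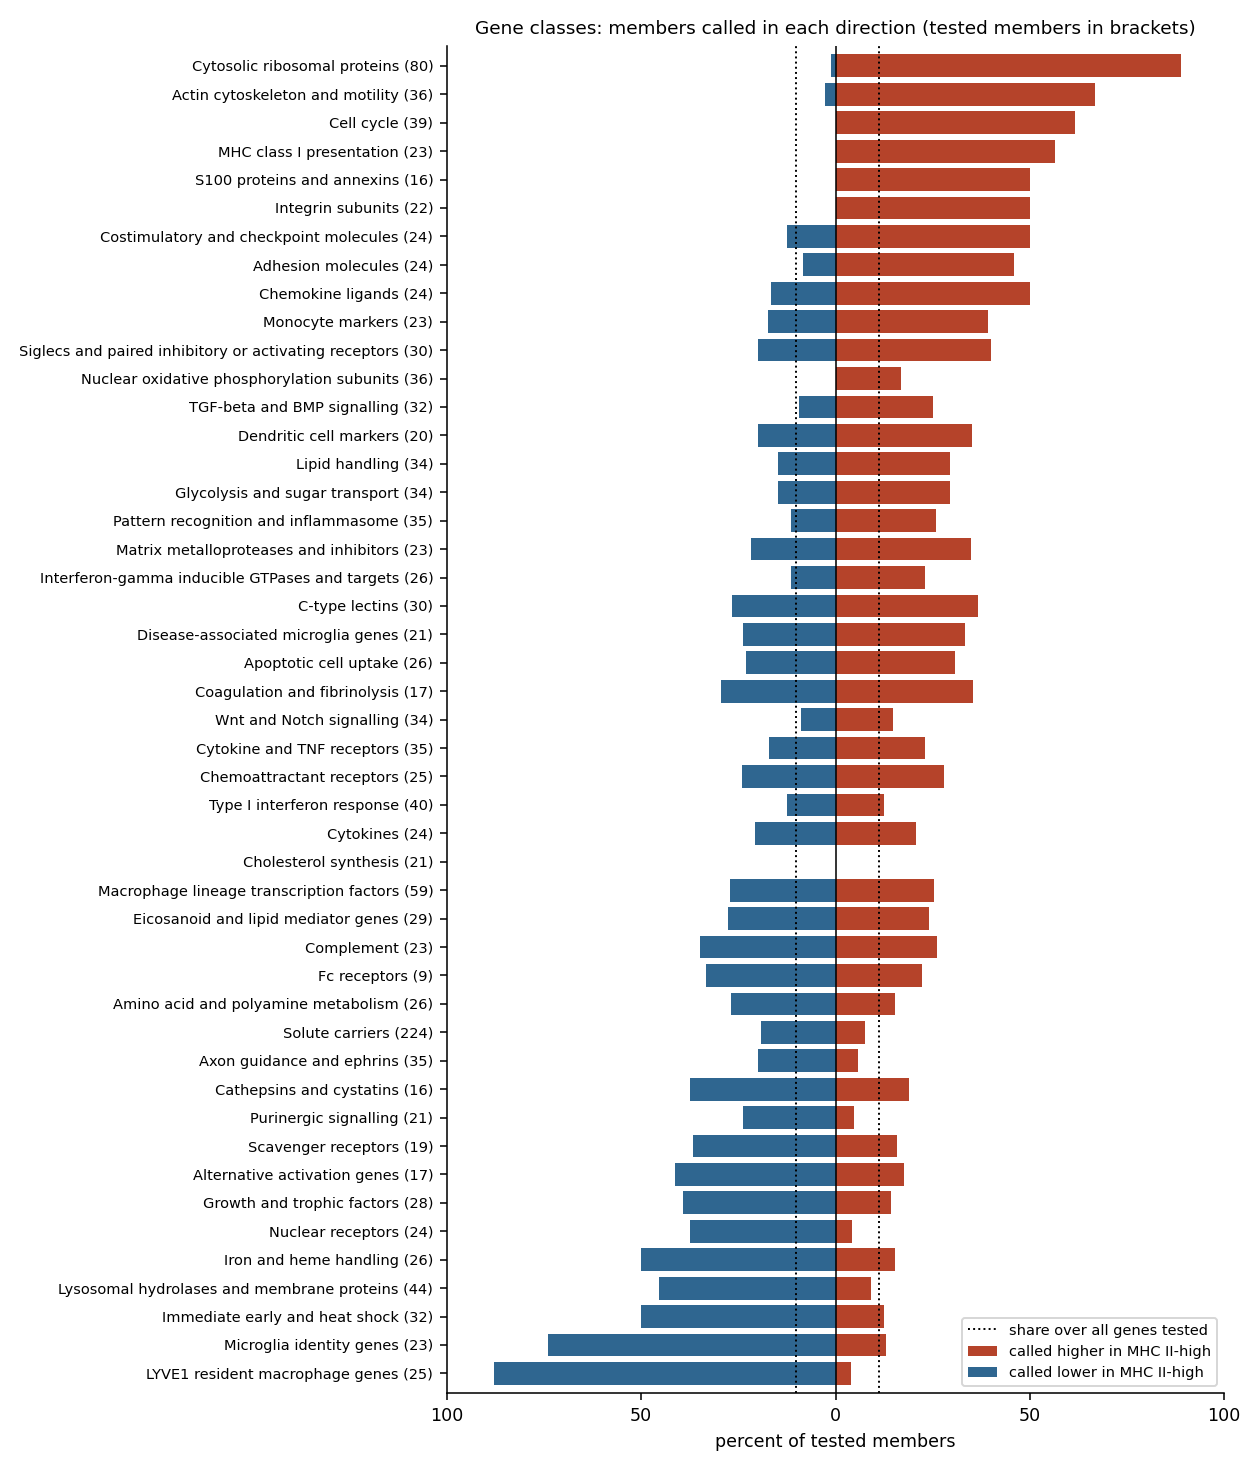
Percent of the tested members of each gene class that were called higher (right) and lower (left) in MHC II-high libraries, with the number tested in brackets and the shares over all tested genes, 11.1% and 10.3%, as dotted lines. The lines are a low yardstick for classes of well expressed genes. Ribosomal protein and actin genes lie at the top and LYVE1 resident and microglia identity genes at the bottom.

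Genes for cell shape, movement and attachment rose together. Of 36 actin cytoskeleton and motility genes 24 rose and 1 fell, and their median was 0.33. Vim, the intermediate filament vimentin, had 239.9, 199, 229 and 227 CPM in MHC II-high libraries, against 97.5, 79.2, 81.5 and 85.8 CPM in MHC II-low libraries (log2 fold change 1.38 ± 0.06, edgeR adjusted p = 3.76e-08). The largest other rises were of Tmsb10, which binds actin monomers (38.7 ± 4.22 in MHC II-high against 10.8 ± 1.88 CPM in MHC II-low), Lsp1 and Crip1 (121 ± 6.58 in MHC II-high against 49.6 ± 1.67 CPM in MHC II-low). The fall was of the GTPase Rhob (333 ± 19.1 in MHC II-high against 558 ± 47.4 CPM in MHC II-low). Every MHC II-high library lay above every MHC II-low library for Vim, Tmsb10, Lsp1 and Crip1.

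Integrin subunits followed, with 11 risen and 0 fallen of 22 tested. After Itgax the largest rises were of Itga8 (13.1 ± 4.68 in MHC II-high against 2.89 ± 1.77 CPM in MHC II-low), Itgav (152 ± 11.8 in MHC II-high against 92.5 ± 9.06 CPM in MHC II-low) and Itga4, the lymphocyte and monocyte partner of VCAM1 (106 ± 16.6 in MHC II-high against 69.8 ± 4.84 CPM in MHC II-low). Of 24 other adhesion genes 11 rose and 2 fell. The rises were led by Cadm1 (150.1 ± 3.66 in MHC II-high against 36.1 ± 7.96 CPM in MHC II-low) and Emb (92.2 ± 14.1 in MHC II-high against 22.9 ± 3.01 CPM in MHC II-low). Alcam (30.2 ± 10.9 in MHC II-high against 9.34 ± 3.41 CPM in MHC II-low) and the hyaluronan receptor Cd44 (81.9 ± 8.56 in MHC II-high against 26.9 ± 6.56 CPM in MHC II-low) followed. Vcam1 itself fell (303 ± 78.9 in MHC II-high against 572 ± 187 CPM in MHC II-low). Cd44 and Lyve1, both receptors for hyaluronan, thus moved in opposite directions. S100 proteins and annexins added 8 rises and 0 falls of 16. Among the rises were those of S100a6 (16.8 ± 3.703 in MHC II-high against 4.95 ± 1.72 CPM in MHC II-low), S100a11 (29.7 ± 6.32 in MHC II-high against 11.5 ± 4.25 CPM in MHC II-low) and Anxa1 (44.4 ± 11.2 in MHC II-high against 20.3 ± 3.88 CPM in MHC II-low).

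Receptors for engulfment did not move in 1 direction. Scavenger receptors fell more often than they rose, 7 against 3 of 19. Stab1, which takes up modified lipoprotein and hyaluronan, averaged 1351 ± 316 in MHC II-high against 2974 ± 376 CPM in MHC II-low, and Colec12 and Lyve1 fell further. Of 26 genes for the uptake of apoptotic cells 8 rose and 6 fell (7 rises and 3 falls without the block). Timd4, a phosphatidylserine receptor of long-resident macrophages, had 78.7, 77.98, 81.8 and 63.9 CPM in MHC II-high libraries, against 131, 119, 133 and 128 CPM in MHC II-low libraries (log2 fold change −0.76 ± 0.08). Its MHC II-high libraries all lay under the MHC II-low ones. The TAM receptors parted, since Mertk (130.2 ± 11.96 in MHC II-high against 202 ± 11.7 CPM in MHC II-low) and the bridging ligand Gas6 (900.4 ± 67.7 in MHC II-high against 1878 ± 80.7 CPM in MHC II-low) fell while Axl rose (1732 ± 211 in MHC II-high against 982 ± 128 CPM in MHC II-low). Cd300lb (54.4 ± 8.34 in MHC II-high against 20.3 ± 5.21 CPM in MHC II-low) and Thbs1 (69.2 ± 14.4 in MHC II-high against 33.4 ± 5.66 CPM in MHC II-low) also rose.

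C-type lectins parted likewise, with 11 risen and 8 fallen of 30. Clec4b1, Cd69 (31.6 ± 11.1 in MHC II-high against 9.95 ± 3.73 CPM in MHC II-low), Cd72 (245 ± 76.2 in MHC II-high against 80.6 ± 24.7 CPM in MHC II-low) and Clec7a, the beta-glucan receptor dectin-1 (317 ± 36.8 in MHC II-high against 145 ± 23.4 CPM in MHC II-low), rose. Clec4n, the dectin-2 gene (159 ± 20.4 in MHC II-high against 363 ± 38.2 CPM in MHC II-low), and Cd209f (253 ± 30.3 in MHC II-high against 435 ± 54.2 CPM in MHC II-low) fell, so the 2 dectins moved apart. The mannose receptor Mrc1, one of the genes of alternative activation, fell (2919 ± 400.4 in MHC II-high against 4634 ± 120 CPM in MHC II-low), and so did the haemoglobin scavenger receptor Cd163 (669 ± 70.3 in MHC II-high against 1131 ± 123 CPM in MHC II-low). That class had 7 falls and 3 rises of 17, and the rises included Retnla and Mgl2.

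Paired and Fc receptors changed in both directions. Of 30 Siglec and paired receptor genes 12 rose (11 rises and 3 falls without the block), led by Sirpb1a (15.3 ± 4.44 in MHC II-high against 1.45 ± 0.708 CPM in MHC II-low) and Pilra (40.5 ± 5.09 in MHC II-high against 15.04 ± 6.87 CPM in MHC II-low). A further 6 fell, among them the inhibitory receptor Cd200r1 (42.4 ± 6.14 in MHC II-high against 93.6 ± 9.79 CPM in MHC II-low) and Siglech (71.9 ± 18.8 in MHC II-high against 143 ± 31.1 CPM in MHC II-low). Sirpb1a belongs to a cluster of near-identical genes, so its level is uncertain. Fcgr4, an activating IgG receptor, rose (88.7 ± 21.9 in MHC II-high against 38.3 ± 4.55 CPM in MHC II-low). The Fc-like receptor Fcrls (1263 ± 137 in MHC II-high against 2388 ± 293 CPM in MHC II-low) and the neonatal Fc receptor Fcgrt (868 ± 92.3 in MHC II-high against 1383 ± 175 CPM in MHC II-low) fell. Pattern recognition genes gave 9 rises and 4 falls of 35, 25.7% and 11.4%, against 11.1% and 10.3% of all genes. Tlr12 (33.6 ± 7.15 in MHC II-high against 10.3 ± 2.29 CPM in MHC II-low) and Tlr2 (716 ± 119 in MHC II-high against 504 ± 47.1 CPM in MHC II-low) rose. Tlr5 (27.8 ± 7.18 in MHC II-high against 52.1 ± 2.71 CPM in MHC II-low) and Nlrc4 (29.3 ± 2.66 in MHC II-high against 50.5 ± 4.49 CPM in MHC II-low), both of the response to flagellin, fell.

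Complement genes moved in both directions. C2, the serine protease of the classical pathway's convertase, had 76.5, 52.1, 47.9 and 48.9 CPM in MHC II-high libraries, against 257, 177, 186 and 215 CPM in MHC II-low libraries (log2 fold change −1.90 ± 0.08). C3, the central component, had 218, 168, 144 and 152 CPM in MHC II-high libraries, against 95.95, 59.02, 59.4 and 83.2 CPM in MHC II-low libraries (log2 fold change 1.21 ± 0.09). Neither gene overlapped between the groups, and they moved in opposite directions. C4b (612 ± 172 in MHC II-high against 1166 ± 294 CPM in MHC II-low), properdin, Cfp (473 ± 55.6 in MHC II-high against 701 ± 127 CPM in MHC II-low), and the membrane inhibitor Cd55 (28.3 ± 8.97 in MHC II-high against 108 ± 15.2 CPM in MHC II-low) fell with C2. Factor B, Cfb, the alternative pathway's counterpart of C2, averaged 190.4 ± 127 in MHC II-high against 105 ± 57.9 CPM in MHC II-low, a call lost without the block (edgeR adjusted p = 0.424). In all 6 of 23 rose and 8 fell (3 rises and 6 falls without the block). The coagulation class had 6 rises and 5 falls of 17. The plasminogen receptor pair Anxa2 (71.01 ± 13.6 in MHC II-high against 33.9 ± 4.91 CPM in MHC II-low) and S100a10 (26.6 ± 1.301 in MHC II-high against 14.6 ± 0.893 CPM in MHC II-low) rose. The anticoagulants Thbd (67.04 ± 3.01 in MHC II-high against 114 ± 18.5 CPM in MHC II-low) and Tfpi (28.8 ± 5.47 in MHC II-high against 43.9 ± 5.27 CPM in MHC II-low) fell.

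Proteases of the endosome moved in both directions. Ctss, the cathepsin that trims the invariant chain in antigen-presenting cells, had 4274, 2959, 3289 and 3792 CPM in MHC II-high libraries, against 2459, 2062, 1882 and 2362 CPM in MHC II-low libraries (log2 fold change 0.70 ± 0.05). Ctsd, an aspartic protease of the lysosome, had 2026, 2111, 1866 and 1841 CPM in MHC II-high libraries, against 4132, 4916, 4084 and 3846 CPM in MHC II-low libraries (log2 fold change −1.11 ± 0.05). Both were without overlap, and Ctsd fell together with Ctsl and Ctsf (98.1 ± 17.3 in MHC II-high against 156 ± 21.02 CPM in MHC II-low). Of 16 cathepsin and cystatin genes 3 rose and 6 fell.

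Other lysosomal genes leaned down by small amounts. Of 44 lysosomal hydrolase and membrane protein genes 20 fell and 4 rose, the median was −0.15, and none changed by 2-fold or more. Falls included the acid glucosidase Gaa (217 ± 9.51 in MHC II-high against 307 ± 35.02 CPM in MHC II-low), Tpp1 (431 ± 33.01 in MHC II-high against 606 ± 51.6 CPM in MHC II-low), Galc (92.3 ± 14.1 in MHC II-high against 129 ± 9.03 CPM in MHC II-low) and Sgsh (38.98 ± 5.498 in MHC II-high against 60.2 ± 11.4 CPM in MHC II-low). The rises were largest for Psap, the precursor of the saposins (5573 ± 582 in MHC II-high against 3261 ± 161 CPM in MHC II-low), and the GM2 activator Gm2a (405 ± 28.2 in MHC II-high against 255 ± 22.8 CPM in MHC II-low), both activator proteins of sphingolipid breakdown. The class summed to 25600 to 28700 CPM in MHC II-high libraries and 25600 to 28200 CPM in MHC II-low libraries, which overlapped.

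Iron handling fell beyond Slc40a1. Of 26 iron and heme genes 13 fell and 4 rose. Ceruloplasmin, Cp, which oxidises the iron that ferroportin exports, averaged 221 ± 13.97 in MHC II-high against 381 ± 48.6 CPM in MHC II-low, the mitochondrial iron importer Slc25a37 averaged 14.6 ± 1.73 in MHC II-high against 27.1 ± 0.8096 CPM in MHC II-low and Cd163 fell as given above. Fth1, the heavy chain of ferritin, which stores iron, rose (4731 ± 281 in MHC II-high against 3924 ± 215 CPM in MHC II-low). So did the phagosomal metal transporter Slc11a1 (424 ± 27.5 in MHC II-high against 337 ± 21.2 CPM in MHC II-low) and the ferrireductase Steap3 (19.7 ± 2.41 in MHC II-high against 11.8 ± 1.35 CPM in MHC II-low).

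Matrix proteases gave 8 rises and 5 falls of 23 (6 rises and 3 falls without the block). Mmp12, the macrophage elastase, rose (14.3 ± 3.55 in MHC II-high against 1.12 ± 1.01 CPM in MHC II-low). So did Mmp14, the membrane-type collagenase (127 ± 20.4 in MHC II-high against 47.6 ± 7.21 CPM in MHC II-low), and the inhibitor Timp3 (19.1 ± 2.66 in MHC II-high against 7.87 ± 3.12 CPM in MHC II-low). Adam33 fell (7.01 ± 2.33 in MHC II-high against 29.2 ± 5.31 CPM in MHC II-low). Among collagen genes 4 of 30 rose and 0 fell. That is 13.3%, near the 11.1% of all genes that rose. The largest rises were of Col4a1 (21.1 ± 7.55 in MHC II-high against 5.51 ± 1.61 CPM in MHC II-low) and Col14a1 (69.6 ± 17.9 in MHC II-high against 20.3 ± 2.19 CPM in MHC II-low). Col14a1 had 59.7, 70.5, 94.4 and 53.8 CPM in MHC II-high libraries, against 21.95, 21.3, 20.9 and 17.1 CPM in MHC II-low libraries, without overlap. Markers of fibroblasts and meningeal stroma moved beside these, with 5 of 16 risen (3 rises and 0 falls without the block), among them decorin, Dcn (31.5 ± 7.11 in MHC II-high against 18.2 ± 4.54 CPM in MHC II-low), whose call was lost without replicate 2 or 3. Their summed level was 216, 444, 446 and 599 CPM in MHC II-high libraries and 265, 307, 228 and 236 CPM in MHC II-low libraries, with the highest value in replicate 4 and the lowest in replicate 1 of the MHC II-high group. Without replicate 1 the fibroblast count was 10 and the collagen count 11, without replicate 2 both were 2, without replicate 3 they were 2 and 4, and without replicate 4 they were 4 and 2. The part of stromal RNA in the collagen values was not tested.

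Cytokine genes changed in equal numbers, 5 up and 5 down of 24 (4 rises and 1 fall without the block). Il1b, the inflammatory cytokine, had 269.8, 295, 601 and 357 CPM in MHC II-high libraries, against 109, 164, 200 and 143 CPM in MHC II-low libraries (log2 fold change 1.26 ± 0.10). Its antagonist Il1rn rose too (28.5 ± 12.1 in MHC II-high against 11.1 ± 1.19 CPM in MHC II-low), as did the B cell survival factor BAFF, Tnfsf13b (37.4 ± 7.07 in MHC II-high against 11.4 ± 2.48 CPM in MHC II-low). Il10, the anti-inflammatory cytokine, had 27.1, 33.5, 54.2 and 30.1 CPM in MHC II-high libraries, against 68.8, 46.9, 85.4 and 61.9 CPM in MHC II-low libraries (log2 fold change −0.88 ± 0.13), and its groups overlapped. Both genes were highest in replicate 3 of each group. Of 35 cytokine receptors 8 rose and 6 fell (5 rises and 4 falls without the block). The GM-CSF receptor chain Csf2ra (245 ± 10.3 in MHC II-high against 165 ± 16.8 CPM in MHC II-low) and the common gamma chain Il2rg (172 ± 30.8 in MHC II-high against 93.6 ± 20.4 CPM in MHC II-low) rose. Csf1r (6474 ± 305 in MHC II-high against 8331 ± 556 CPM in MHC II-low) and Il4ra (486 ± 57.2 in MHC II-high against 727 ± 126 CPM in MHC II-low) fell.

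Growth and trophic factors leaned down, with 11 falls and 4 rises of 28 (3 rises and 6 falls without the block). Tgfa, Angptl7 and Egfl7 were the largest falls, and Pdgfb rose (65.2 ± 7.66 in MHC II-high against 39.6 ± 6.96 CPM in MHC II-low). In the TGF-beta and BMP class 8 of 32 rose and 3 fell. The type I receptors Tgfbr1 (678 ± 46.5 in MHC II-high against 335 ± 49.7 CPM in MHC II-low) and Acvrl1 (133 ± 11.6 in MHC II-high against 59.97 ± 6.58 CPM in MHC II-low) rose. The type I BMP receptor Bmpr1a (8.38 ± 2.05 in MHC II-high against 21.4 ± 4.13 CPM in MHC II-low) and the type II receptor Tgfbr2 (978 ± 15.3 in MHC II-high against 1180 ± 20.97 CPM in MHC II-low) fell. Wnt and Notch genes changed at 5 up and 3 down of 34 (3 rises and 3 falls without the block), close to the share of all genes, with the Notch ligand Jag1 up (14.2 ± 3.99 in MHC II-high against 5.51 ± 2.33 CPM in MHC II-low) and Fzd8 down. Axon guidance genes, which also steer immune cells, gave 2 rises and 7 falls of 35, with Sema4d up (359 ± 75.5 in MHC II-high against 237 ± 31.2 CPM in MHC II-low) and Ephb6 down (6.71 ± 1.98 in MHC II-high against 19.3 ± 2.98 CPM in MHC II-low). The share called, 25.7%, was near the 21.4% of all genes, and the median was 0.02.

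Metabolic classes differed in how many of their genes were called. None of 21 cholesterol synthesis genes was called by edgeR with or without the block or by DESeq2, and 1 had an unadjusted p under 0.05. Nuclear oxidative phosphorylation genes gave 6 rises and 0 falls of 36, with Atp5g1 (55.2 ± 3.57 in MHC II-high against 39.6 ± 2.699 CPM in MHC II-low) the largest. The share that rose, 16.7%, was over the 11.1% of all genes that rose, and 2 to 5 rose with 1 replicate pair left out. The median log2 fold change was 0.13, with 32 genes above 0 and 4 below. The class summed to 3790 to 4160 CPM in MHC II-high libraries and 3510 to 3780 CPM in MHC II-low libraries, without overlap. Of 34 glycolysis and sugar transport genes 10 rose and 5 fell, 29.4% and 14.7%, against 11.1% and 10.3% of all genes. The set of 1373 well expressed genes described above had 279 rises and 308 falls. Phosphofructokinase, Pfkp (52.6 ± 7.12 in MHC II-high against 27.5 ± 3.61 CPM in MHC II-low), and the glucose transporter Slc2a1 (21.8 ± 1.94 in MHC II-high against 12.9 ± 1.81 CPM in MHC II-low) rose, and hexokinase 3, Hk3, fell (153 ± 14.7 in MHC II-high against 228 ± 15.9 CPM in MHC II-low). In the lipid class 10 rose and 5 fell of 34 (6 rises and 3 falls without the block), again 29.4% and 14.7%. Ch25h, which makes 25-hydroxycholesterol, rose (49.04 ± 11.8 in MHC II-high against 23.2 ± 2.05 CPM in MHC II-low), and the lipid droplet coat Plin2 fell (371 ± 56.03 in MHC II-high against 512 ± 75.98 CPM in MHC II-low).

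Lipid mediator genes moved in both directions. Of 29 tested 7 rose and 8 fell (7 rises and 5 falls without the block). Cyp4f18, which inactivates leukotriene B4, rose (173 ± 41.4 in MHC II-high against 38.9 ± 9.77 CPM in MHC II-low). Ltc4s, the secreted phospholipase Pla2g2d (219.6 ± 20.9 in MHC II-high against 516 ± 6.46 CPM in MHC II-low) and the prostaglandin D2 synthase Hpgds (198 ± 28.5 in MHC II-high against 290.1 ± 36.9 CPM in MHC II-low) fell. Solute carriers fell more often than they rose, 43 against 17 of 224. That was 19.2% and 7.59%, against 10.3% and 11.1% of all genes, and the median was −0.06. The glutamine carrier Slc1a5 rose (33.5 ± 5.86 in MHC II-high against 17.9 ± 4.67 CPM in MHC II-low). The ADP receptors P2ry12 (209 ± 20.5 in MHC II-high against 343 ± 32.7 CPM in MHC II-low) and P2ry13 (214 ± 20.7 in MHC II-high against 367 ± 19.95 CPM in MHC II-low) and the ATP-gated channel P2rx7 (261 ± 20.5 in MHC II-high against 404 ± 32.3 CPM in MHC II-low) fell. The purinergic class had 5 falls and 1 rise of 21, 23.8% and 4.76%, against 10.3% and 11.1% of all genes, with a median of 0.02. The potassium channels Kcnn4 (50.2 ± 15.3 in MHC II-high against 9.06 ± 2.84 CPM in MHC II-low) and Kcna3 (53.1 ± 6.0 in MHC II-high against 17.7 ± 2.58 CPM in MHC II-low) rose.

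Listed transcription factors of the macrophage lineage were called in like numbers in each direction, 15 up and 16 down of 59 (8 rises and 11 falls without the block). Runx3, which acts in dendritic and T cell development, had 31.4, 23.6, 25.3 and 25.2 CPM in MHC II-high libraries, against 5.53, 8.18, 4.59 and 5.18 CPM in MHC II-low libraries (log2 fold change 2.19 ± 0.19). Batf3 and Ets1 (31.5 ± 5.82 in MHC II-high against 19.4 ± 1.05 CPM in MHC II-low) also rose. Cebpd (138 ± 17.2 in MHC II-high against 275 ± 70.95 CPM in MHC II-low), Sox4 (8.72 ± 2.12 in MHC II-high against 22.3 ± 3.94 CPM in MHC II-low) and Tfec (9.99 ± 2.47 in MHC II-high against 21.9 ± 2.34 CPM in MHC II-low) fell. Of 24 nuclear receptor genes 9 fell and 1 rose (0 rises and 5 falls without the block). Pparg, the rise, averaged 29.3 ± 7.24 in MHC II-high against 16.3 ± 6.97 CPM in MHC II-low, with overlapping libraries and an edgeR adjusted p of 0.0665 without the block, and Rara fell (40.04 ± 2.77 in MHC II-high against 55.6 ± 4.72 CPM in MHC II-low).

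Ribosomal protein genes rose almost as a whole, each by a small step. Their products form the cytosolic ribosome with ribosomal RNA. Of 80 tested genes of 84 in the files 71 rose and 1 fell, against 11.1% and 10.3% of all genes, and the median log2 fold change was 0.53. None reached 2-fold. Without the block 69 rose and 1 fell, and with 1 replicate pair left out between 54 and 71 rose.

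The ribosomal protein genes summed to 6819, 8113, 8833 and 7595 CPM in MHC II-high libraries, against 5444, 5753, 5566 and 5596 CPM in MHC II-low libraries. The groups did not overlap, and the MHC II-high libraries varied more among themselves, with replicate 1 lowest. Rpl32 had 114, 154, 166 and 140.1 CPM in MHC II-high libraries, against 78.7, 89.3, 74.4 and 85.9 CPM in MHC II-low libraries (log2 fold change 0.80 ± 0.09), and Rps26 (27.8 ± 6.32 in MHC II-high against 14.8 ± 1.69 CPM in MHC II-low) and Rpl23a (116 ± 18.6 in MHC II-high against 68.5 ± 3.55 CPM in MHC II-low) were of like size. The fall was that of Rps4l, a Rps4-like gene (17.4 ± 3.58 in MHC II-high against 26.7 ± 4.15 CPM in MHC II-low). These sums were 0.682% to 0.883% of gene counts in MHC II-high libraries and 0.544% to 0.575% in MHC II-low libraries. Many ribosomal protein genes have processed pseudogenes, and several, such as Rps27 at 0.482 in MHC II-high against 0.601 CPM in MHC II-low, named after its values were seen, were listed at a very low level, so the levels are uncertain.

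**Figure D3:**
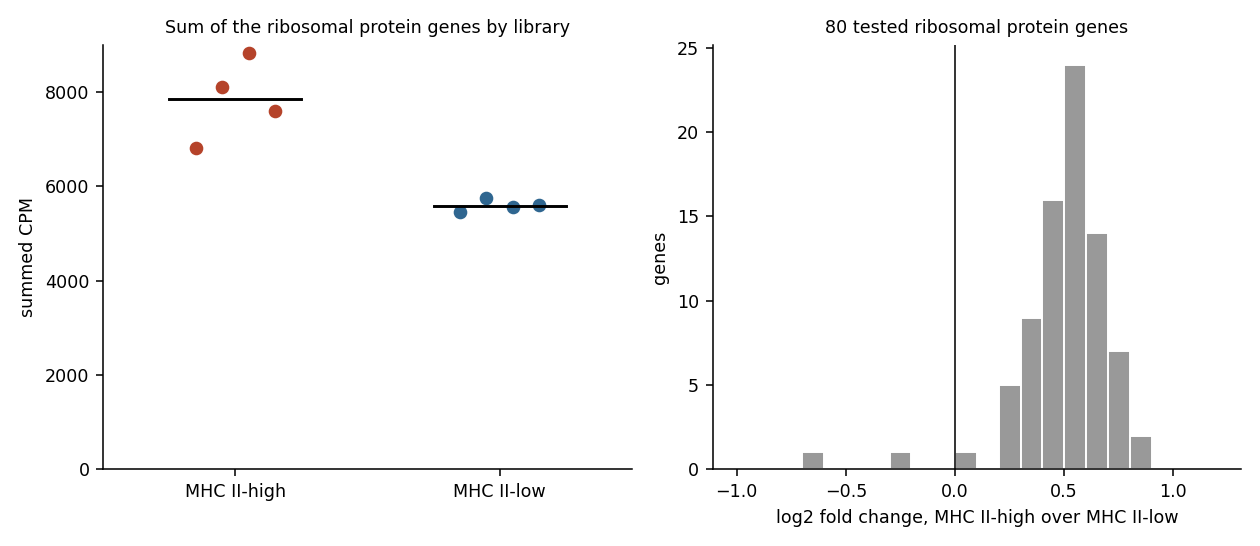
Left, summed level in CPM of the ribosomal protein genes in each MHC II-high and MHC II-low library, with the group mean as a bar. Right, number of the 80 tested ribosomal protein genes by log2 fold change, MHC II-high over MHC II-low, where nearly all lie right of 0 and the median is 0.53.

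Some classes varied with the replicate number more than with the population. Type I interferon response genes summed to 13000, 5780, 8810 and 9520 CPM in MHC II-high libraries and 12600, 6720, 9490 and 10200 CPM in MHC II-low libraries. The order of the replicates was the same in both groups, with replicate 1 highest and replicate 2 lowest, and the groups overlapped. Of 40 tested 5 rose and 5 fell, 12.5% each way, near the 11.1% and 10.3% of all genes. Without the block 0 did in either direction in edgeR, with 0 at an unadjusted p under 0.05. DESeq2 with the block called 5 higher and 7 lower, against 12.7% and 11.4% of all genes (24.2% together). Oas2, a sensor of double-stranded RNA, averaged 97.5 ± 32.9 in MHC II-high against 155 ± 48.3 CPM in MHC II-low.

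Cell cycle genes summed to 1690, 1110, 1270 and 1620 CPM in MHC II-high libraries and 1190, 852, 981 and 1290 CPM in MHC II-low libraries. The MHC II-high library was the higher of the 2 in all 4 pairs. Replicates 1 and 4 were the highest in both groups, and the groups overlapped. Of 39 tested 24 rose and 0 fell with the block, and 6 rose without it. Top2a, the topoisomerase of dividing cells, had 65.9, 40.4, 42.03 and 71.5 CPM in MHC II-high libraries, against 35.1, 13.4, 17.8 and 48.6 CPM in MHC II-low libraries (log2 fold change 1.06 ± 0.15), with an edgeR adjusted p of 0.000248 with the block and 0.213 without it. Bub1, a mitotic checkpoint kinase, rose in both fits (11.3 ± 3.59 in MHC II-high against 4.19 ± 2.12 CPM in MHC II-low).

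**Figure D4:**
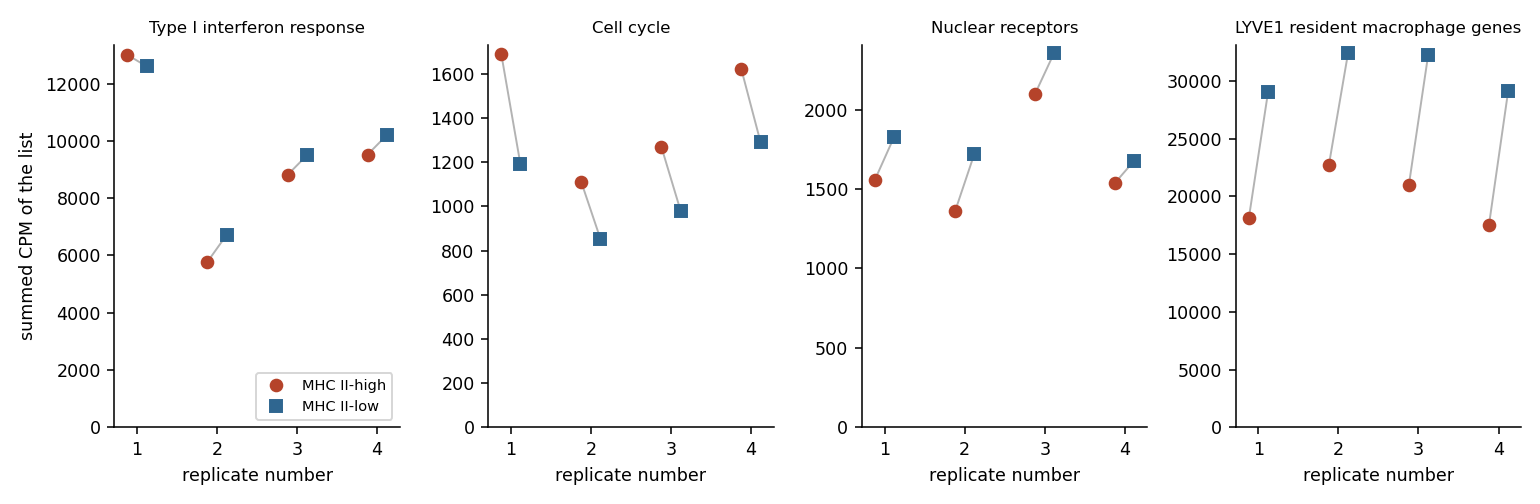
Summed CPM of 4 gene classes by replicate number, with the MHC II-high library of each number at the left of a grey line and the MHC II-low library at its right. Replicate 2 is lowest in both groups in the interferon and cell cycle classes and replicate 3 highest in both in the nuclear receptor class, while the LYVE1 resident class lies lower in MHC II-high libraries at every number.

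Immediate early and heat shock genes, which cell handling can induce, gave 16 falls and 4 rises of 32 with the block and 3 falls and 0 rises in edgeR without it, where 7 had an unadjusted p under 0.05. Ier3 averaged 451 ± 146 in MHC II-high against 689.8 ± 193 CPM in MHC II-low and the chaperone Dnajb1 434 ± 119.7 in MHC II-high against 616 ± 109 CPM in MHC II-low, both called only with the block (edgeR adjusted p without it = 0.195 and 0.16). The class summed to 60600, 58300, 67600 and 60000 CPM in MHC II-high libraries and 64100, 69000, 72000 and 58900 CPM in MHC II-low libraries, which overlapped. The part of cell handling in these values was not tested. Genes induced by interferon gamma gave 6 rises and 3 falls of 26 (4 rises and 1 fall without the block), with Gbp2b, Cxcl9 and Gbp3 (113 ± 24.4 in MHC II-high against 72.4 ± 15.3 CPM in MHC II-low) up and Gbp7 (167 ± 25.8 in MHC II-high against 225 ± 34.9 CPM in MHC II-low) down.

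Markers of other cell types were uneven in level. T, NK and innate lymphoid markers other than Cd4 were near 0, with Cd3e, named after its values were seen, at 0 in MHC II-high against 0.0695 CPM in MHC II-low, and Cd4, which macrophages also express, fell (124 ± 16.1 in MHC II-high against 267 ± 15.9 CPM in MHC II-low). The B and plasma cell list summed to 40.1 to 58 CPM in MHC II-high libraries and 32.6 to 40 CPM in MHC II-low libraries, without overlap, with Cd79b at 40.6 ± 4.86 in MHC II-high against 33.8 ± 2.21 CPM in MHC II-low, which was not called; Pax5 was at 0 in all 8 libraries. Of 14 endothelial markers 6 rose and 2 fell, at low levels such as 4.93 in MHC II-high against 0.787 CPM in MHC II-low for Vwf, named after its values were seen. Their sums overlapped at 91.6 to 121 CPM in MHC II-high and 84.9 to 113 CPM in MHC II-low libraries. Egfl7, one of the falls, averaged 9.51 in MHC II-high against 47.05 CPM in MHC II-low and was left out after its values were seen. The sums without it were 80.6 to 112 CPM in MHC II-high and 50.3 to 56.0 CPM in MHC II-low libraries. These trimmed sums did not overlap, but the gene was dropped with its values known. They are a description and no evidence of a group difference. The median log2 fold change of the list was 2.01, against 0.0 over all tested genes, and 12 of 14 were positive. The part of endothelial RNA in the differences was not tested. In the plasmacytoid dendritic cell list 3 fell and 0 rose of 8, Siglech among them. Much of that list's summed level came from Irf7 (423 ± 280 in MHC II-high against 350 ± 152 CPM in MHC II-low), named after its values were seen and not called. The plasmacytoid list summed to 377 to 965 CPM in MHC II-high and 509 to 801 CPM in MHC II-low libraries, the erythroid and platelet list to 388 to 685 CPM in MHC II-high and 642 to 815 CPM in MHC II-low libraries, and the neutrophil list to 221 to 341 CPM in MHC II-high and 296 to 530 CPM in MHC II-low libraries, each with overlap. Much of the neutrophil sum came from Mmp9 (157 ± 62.9 in MHC II-high against 299 ± 124 CPM in MHC II-low), and much of the erythroid and platelet sum from Pf4 (539 ± 148 in MHC II-high against 720.2 ± 71.6 CPM in MHC II-low). Both genes fell with the block and were not called without it (edgeR adjusted p without it = 0.187 and 0.165), while the neutrophil markers S100a8 and S100a9, named after their values were seen, were under 1 CPM in every library. The erythroid, neutrophil, mast cell, bone and neural lists had 5, 3, 4, 8 and 8 tested genes. They had 2, 0, 0, 1 and 0 rises and 1, 1, 0, 1 and 0 falls, against 11.1% and 10.3% of all tested genes. Without the block the lists had 2, 0, 0, 0 and 0 rises and 0 falls. Counts from so few genes do not show that a cell type was absent.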

How the data were processed

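Bulk RNA-seq libraries of dura macrophages, 4 MHC II-high and 4 MHC II-low, were analysed. Per the submitters' processing notes the authors used mm10 and, in no stated order, TopHat2 2.1.0, SAMtools 0.1.18, Trimmomatic 0.38 and FastQC 0.11.4. The sources used here name no counting program, annotation or strand setting, so reads of genes that overlap on opposite strands may be mixed. The deposited unit is the whole-number count of reads per gene symbol, for 24421 symbols, with 5 lines of unassigned reads left out of all fits. Reads in no feature were 5.67% to 8.17% of an MHC II-high library and 6.61% to 8.24% of an MHC II-low one, and ambiguous reads about 1%.

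Counts were fitted in edgeR 4.0.16 (R 4.3.3) with filterByExpr, TMM factors of 0.963 to 1.04, and replicate number plus population as terms (robust quasi-likelihood F test, two-sided, 3 residual degrees of freedom, Benjamini-Hochberg adjustment over 12631 genes). The common biological coefficient of variation was 0.222. SE is the log2 fold change divided by the square root of F. The floor of 3 counts was 0.0956 to 0.135 CPM per library and covers counting error only. The fit was tested on simulated data. Alternatives used DESeq2 1.42.0, other normalization and filters, no block, all 20 libraries and left-out libraries.

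The members, the 73 gene lists and the tests were chosen with earlier results of these data known. Listed symbols missing from the files were matched by older symbol where exactly 1 matched, in 8 cases. Genes were named by rule: the 12 largest changes in each direction at 20 CPM or more without overlap between groups, and up to 4 called members per list and direction at 10 CPM or more. Positions are from GENCODE M21 on mm10, which holds 23376 of the symbols, though not Cyr61. Over 25% of the exon bases were shared with another gene for Cd72 (41.6%) and Rpl23a (62.3%), of 215 named genes with a position. Some genes that the rule names are not reported here.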

Additional observations from a re-analysis of the deposited data

Results flagged for a closer look

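In 22 of 420 sets of 4 libraries, 1 library lay apart from the other 3 of its group by Dixon's test at the 95% level. Chance flags about 1 set in 20. Of MHC II-high replicate 1 these were Acvrl1 at 151 CPM, C2 at 76.5 CPM, Tmem119 at 269 CPM and Gpr18 at 14.4 CPM, all above the other 3 libraries, and Rps26 at 18.3 CPM, below them. MHC II-high replicate 2 was low for Cd69 at 14.99 CPM and Rab11fip1 at 10.9 CPM and high for Tgfbr1 at 748 CPM. MHC II-high replicate 3 was high for Blnk at 179 CPM and Fth1 at 5150 CPM, and replicate 4 for Olfm1 at 95.7 CPM.

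MHC II-low replicate 1 was high for Cd163 at 1316 CPM, Slamf7 at 14.1 CPM, Slamf8 at 16.4 CPM and Vcam1 at 851 CPM. MHC II-low replicate 2 was high for Csf2ra at 190 CPM, Sgsh at 77.2 CPM, Slc1a5 at 24.8 CPM, Stab1 at 3535 CPM and Tmem119 at 167 CPM, and low for Nrap at 21.7 CPM, and replicate 4 was high for Rab11fip1 at 6.75 CPM. The groups did not overlap for any of these genes.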

How the results depend on the processing

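With RLE size factors, with no or a stricter filter on low counts, and in DESeq2 with the replicate block, 1395 to 1609 genes were higher and 1310 to 1444 lower, against 1403 and 1297 in the design used. With no replicate block 1009 were higher and 909 lower, and 1900 of the 2700 genes were called both ways. The replicate numbers pair the libraries weakly. Deviations of same-numbered libraries from their group means correlated at 0.0499, 0.0984, 0.0853 and 0.156 across genes, against −0.0852 to 0.0628 for other numbers, and replicate 1 of MHC II-high correlated best with replicate 3 of MHC II-low. No label ties the numbers to animals or batches, and 1 of the 4 same-number correlations was over 0.1, so calls that need the block rest on a pairing that is not established.

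Fits of all 20 libraries called 772 higher and 715 lower with the block and 806 and 724 without it. At least 2-fold left 363 and 230. Without 1 replicate pair 973 to 1175 were higher and 956 to 1065 lower. With no block and without 1 library, added after seeing the data, 740 to 894 were higher and 681 to 923 lower. A fold threshold can only lower the counts. The causes of the other shifts were not tested.

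Of 210 named genes tested, 10 lost their call with no replicate block, 46 with all 20 libraries and the block, 44 with all 20 and no block, 5 with no filter, at most 4 without any 1 pair, and 14 to 22 without the block and 1 library, and 0 turned direction under RLE, either filter or DESeq2. Ly6c2, not called at −0.05, ranged from −0.71 to 0.70 on the log2 scale without any 1 replicate or library, above 0 in 6 of these 12 fits. Depth limits the genes of a few CPM, such as Clec9a and Ly6c2, and the 3 residual degrees of freedom limit small differences.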

Other observations

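Several receptor and signalling families that enter no class above held called genes. Among orphan G protein-coupled receptors 7 rose and 9 fell of 33. Gpr132 (18.2 ± 2.32 in MHC II-high against 3.83 ± 1.84 CPM in MHC II-low), a receptor linked to oxidised lipids, Gpr18 (10.1 ± 2.89 in MHC II-high against 2.61 ± 1.63 CPM in MHC II-low) and Gpr35 (17.9 ± 3.42 in MHC II-high against 6.69 ± 2.15 CPM in MHC II-low) rose, while Gpr165 (17.98 ± 2.45 in MHC II-high against 39.6 ± 3.74 CPM in MHC II-low) and Gpr157 (22.4 ± 4.23 in MHC II-high against 39.2 ± 2.29 CPM in MHC II-low) fell. Of 14 adhesion G protein-coupled receptors 4 rose and 3 fell (1 rise and 3 falls without the block): Adgre5, which binds CD55, rose (189 ± 10.2 in MHC II-high against 78.8 ± 15.4 CPM in MHC II-low) where Cd55 itself fell, and Adgrl2 fell (8.52 ± 2.94 in MHC II-high against 26.5 ± 4.66 CPM in MHC II-low). Regulators of G protein signalling had 2 rises and 2 falls of 13, 30.8% against 21.4% of all genes. Rgs1, which shortens chemokine receptor signals, rose (360.1 ± 89.3 in MHC II-high against 149 ± 25.9 CPM in MHC II-low) and Rgs3 fell (35.8 ± 3.904 in MHC II-high against 69.3 ± 16.6 CPM in MHC II-low). DOCK factors had 3 rises and 1 fall of 11. Dock10 rose (207 ± 17.7 in MHC II-high against 102 ± 7.72 CPM in MHC II-low) against the fall of Dock9, its close relative among CDC42 exchange factors. Pde2a (15.6 ± 3.602 in MHC II-high against 32.4 ± 9.82 CPM in MHC II-low) and Pde7a (26.2 ± 3.39 in MHC II-high against 50.5 ± 4.87 CPM in MHC II-low), which break down cyclic nucleotides, fell, in a family with 1 rise and 2 falls of 18, a smaller share called than over all genes.

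Histone genes were called in both directions, 2 up and 5 down of 23, 30.4% against 21.4% of all genes. The variants H2afz (297 ± 23.7 in MHC II-high against 209 ± 2.61 CPM in MHC II-low) and H3f3a (570.1 ± 61.3 in MHC II-high against 431 ± 25.99 CPM in MHC II-low) rose, and the linker histone gene Hist1h1c (36.4 ± 7.94 in MHC II-high against 91.0 ± 15.3 CPM in MHC II-low) and Hist1h2bc (14.1 ± 2.35 in MHC II-high against 33.1 ± 5.09 CPM in MHC II-low) fell. Tripartite motif proteins, with 2 up and 4 down of 37 (1 rise and 3 falls without the block), were called no more often than all genes. RAB proteins and their binding partners gave 5 rises and 11 falls of 59, with Rab11fip1 up (12.6 ± 1.101 in MHC II-high against 2.97 ± 2.54 CPM in MHC II-low) and Rab34 down (12.9 ± 1.65 in MHC II-high against 25.3 ± 3.87 CPM in MHC II-low). That is 27.1% called, against 21.4% of all genes.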
